A study of Homo sapiens with 12 samples.

Results

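The genes described here encode kinesins and cytoplasmic dynein, the motor proteins of microtubules, and proteins that work with them. The latter are the kinesin-2 adaptor KIFAP3, the dynactin complex and the dynein regulators PAFAH1B1, NDE1 and NDEL1. For short, all are called motor genes. They are 54 named genes, listed by symbol as a functional family. The list was drawn up with earlier results of these data known. All 54 had a row among the 60671 genes of the deposited RNA-seq table. The cells were the line labelled Jurkat, named in the labels as T lymphocytes, in 4 groups of 3 libraries. NC cells, with wild-type genotype in the labels, carried the empty pHIV7/SFFV-GFP vector in the description of the methods. PTPN21 cells carried a lentiviral, FLAG-tagged PTPN21 driven by the viral SFFV promoter. Each was exposed for 48 h to vincristine (VCR) or to the solvent DMSO, giving NC+DMSO, NC+VCR, PTPN21+DMSO and PTPN21+VCR. The labels give no dose of VCR for these libraries, and nothing in them says that the libraries of a group came from separate cultures, so p-values measure only the spread between these samples.

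Dynein and most kinesins convert ATP hydrolysis into steps along microtubules, kinesins mostly toward the plus end and dynein toward the minus end. In interphase they carry vesicles, organelles and RNA; in mitosis a subset of kinesins builds the spindle, aligns chromosomes and completes cytokinesis, while dynein focuses spindle poles and strips checkpoint proteins from kinetochores. Vincristine binds tubulin and disrupts the microtubules on which these motors act, and PTPN21 is a non-receptor tyrosine phosphatase with a FERM domain.

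Values are FPKM, fragments per kilobase of transcript per unit of mapped fragments. The study's methods name digital gene expression tag profiling, and whether the reads covered whole transcripts is not given; if they were tags, division by length would place short genes too high, so the order of levels between genes holds only for FPKM as deposited. Differences were tested with limma on log2(FPKM + 1), and adjusted p-values are Benjamini-Hochberg values over the 11591 genes whose FPKM averaged 1 or more. A gene is said to have risen or fallen where this adjusted p was under 0.05. PTPN21 itself followed the labels, at 0.0212 to 0.0934 FPKM in NC+DMSO, 0.16 to 0.569 in NC+VCR, 7.93 to 10.5 in PTPN21+DMSO and 4.34 to 6.53 in PTPN21+VCR. The label T lymphocyte was not borne out by its defining markers. Of 11 T cell genes, CD3D alone had a median of at least 1 FPKM (61.8 to 140), 8 never reached 1, and CD247, CD5, CD28 and LCK were at 0 in all 12 libraries. The summed level of the 11 was 62.7 to 142 FPKM and without CD3D at most 3.26. The 5 B cell genes summed to 0.234 to 1.84 and the 5 myeloid genes to 10.1 to 20.4 FPKM, the latter mostly LYZ. Looked up after the values were seen, the erythroid factor gene GATA1 averaged 66.9 FPKM in NC+DMSO, 20 in NC+VCR, 92.4 in PTPN21+DMSO and 21.2 in PTPN21+VCR. The fetal globin gene HBG1 averaged 352, 215, 639 and 254 in the same order, so both moved with the groups compared, and their part in the motor gene differences was not tested. The cells are therefore called by their label only. Depth, estimated from the steps of low FPKM values, was 14.3 to 17.6 M fragments in NC and 20.3 to 23.6 M in PTPN21 libraries, so depth and construct cannot be told apart. In bulk RNA, fewer cells of one kind and less RNA per cell cannot be told apart either.

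DYNLRB1, DYNC1I2, DYNLL1 and KIF2C had the highest FPKM of the motor genes. DYNLRB1, a roadblock light chain, averaged 159 to 248 FPKM over the 4 groups, DYNC1I2, the intermediate chain that holds the light chains, 117 to 181, and DYNLL1, the LC8 light chain, 93.7 to 156. The 9 dynein subunit genes summed to 531 ± 56.8 FPKM in NC+DMSO (SD, n = 3), above the 355 ± 27.6 of the 12 mitotic kinesins and the 200 ± 20.1 of the 6 dynactin genes. The heavy chain DYNC1H1, which holds the motor itself, averaged 6.22 to 11.4 FPKM; its longest annotated transcript has 20003 bases, against 1464 for DYNLRB1 and 1376 for DYNLL1. KIF2C, the microtubule depolymerase MCAK, was the most abundant kinesin at 113 to 122 FPKM, and KIF5B, the ubiquitous kinesin-1 heavy chain, led the transport kinesins at 39.6 to 58.7. The means of KIF2C and KIF5B lay far outside each other's replicate spread. By contrast, KIF5C, KIF26B, KIF1A and KIF26A were at or near 0, the last pair at 0 in all 12 libraries, and KIF13B, KIF24 and KIF7 averaged 0.896, 0.889 and 0.48 FPKM. These 7 genes stayed under the mean of 1 FPKM that the test required, which left 47 tested.

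**Figure D1:**
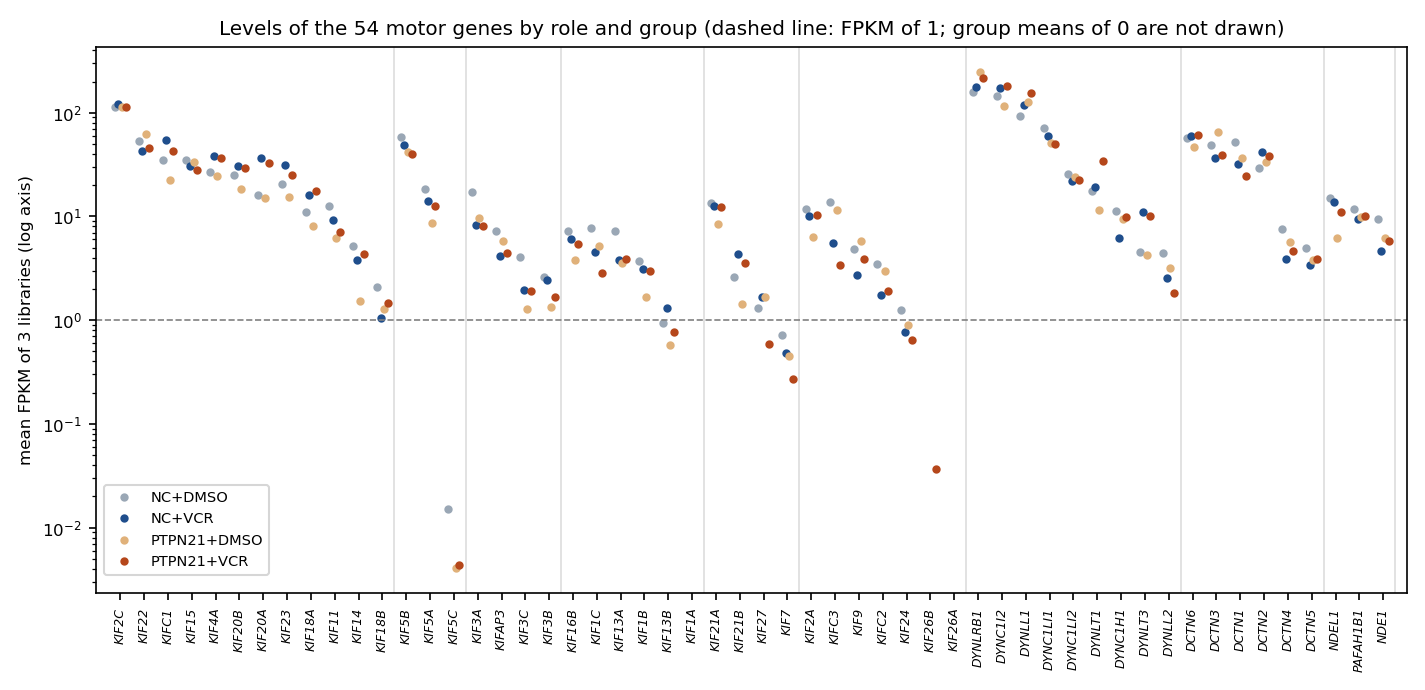
Mean FPKM of 3 libraries (log axis) of the 54 motor genes, ordered by role and then by level, with 1 dot per group. DYNLRB1, DYNC1I2 and KIF2C lie above the other motor genes in NC+DMSO, and KIF5C, KIF26B, KIF1A and KIF26A lie at or near 0.

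Several mitotic kinesins rose together with VCR, in NC and in PTPN21 cells. To show the DNA where those genes start, which the choice of genes did not use, bases around the RefSeq start of transcription (GRCh38.p14) are printed. The 90 bases before and 20 after it are given for the 5 mitotic kinesins that rose in both kinds of cells. They are followed by KIF2C, which was level, and DYNLT3, a dynein light chain that rose; these 7 were chosen after their values were seen. Capitals mark TTTGAA, the usual core of the element known as CHR, and CCAAT, the box bound by NF-Y, both searched on both strands, so that they also appear as TTCAAA and ATTGG. Both are known from promoters of genes transcribed late in the cell cycle.
KIF20A (chr5:138179022-138179131, plus strand): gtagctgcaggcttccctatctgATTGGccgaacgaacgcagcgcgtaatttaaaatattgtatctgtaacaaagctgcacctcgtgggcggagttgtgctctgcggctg
KIF18A (chr11:28108137-28108246, minus strand): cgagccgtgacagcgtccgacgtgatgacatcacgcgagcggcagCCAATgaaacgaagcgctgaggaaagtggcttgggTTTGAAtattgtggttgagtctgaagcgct
KIFC1 (chr6:33391733-33391842, plus strand): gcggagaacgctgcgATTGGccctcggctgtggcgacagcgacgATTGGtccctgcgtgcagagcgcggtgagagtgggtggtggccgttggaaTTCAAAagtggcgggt
KIF23 (chr15:69414259-69414368, plus strand): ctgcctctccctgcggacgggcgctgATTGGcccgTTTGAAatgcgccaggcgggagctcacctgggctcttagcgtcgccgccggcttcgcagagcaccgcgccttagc
KIF4A (chrX:70290014-70290123, plus strand): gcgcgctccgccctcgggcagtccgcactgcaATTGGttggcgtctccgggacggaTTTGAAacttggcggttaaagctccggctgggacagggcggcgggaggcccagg
KIF2C (chr1:44739747-44739856, plus strand): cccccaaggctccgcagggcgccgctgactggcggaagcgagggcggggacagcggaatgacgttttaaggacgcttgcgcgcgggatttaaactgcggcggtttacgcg
DYNLT3 (chrX:37847552-37847661, minus strand): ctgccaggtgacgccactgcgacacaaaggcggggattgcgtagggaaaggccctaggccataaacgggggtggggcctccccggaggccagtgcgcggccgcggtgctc

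In these windows KIF18A, KIFC1, KIF23 and KIF4A held both motifs, KIF20A held CCAAT alone, and KIF2C and DYNLT3 held neither. The gene positions given further on come from GENCODE, and their starts differ from those of RefSeq. By them the printed windows of KIF20A, KIFC1, KIF23 and KIF18A lie inside the gene. Starts outside the RefSeq entries were not searched for motifs. Forms of the CHR core other than those named here were not searched for. Whether KIF20A, KIF2C or DYNLT3 holds a CHR of another form was therefore not tested. Over the full promoter entries, from 250 bases before to 50 after the start, TTTGAA occurred in 9 of the 12 mitotic kinesins (75.0%), in 1 of the 33 other motor genes with an entry (3.03%, KIF5B) and in 15.2% of all 35116 promoters. CCAAT occurred in 10 of 12 mitotic kinesins (83.3%), 13 of 33 others (39.4%) and 34.6% of all promoters, and the palindrome TTCGAA, a variant of the CHR core, in 1 of 12, 1 of 33 and 1.45%. Of the 54 genes 45 had a promoter entry. TTTGAA was not limited to the genes that rose: KIF11, KIF15 and KIF18B, which did not rise with VCR in either kind of cell, held TTTGAA as well. KIF11 and KIF18B, whose windows are not printed, also held CCAAT, so holding both motifs was not limited to the genes that rose either. Whether the motifs are more frequent among the mitotic kinesins that rose was not tested. A match of letters is a description and not a binding site.

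The VCR comparison in NC cells asked how the motor genes responded to the drug without the PTPN21 construct. Of 47 genes tested 14 passed, 7 higher and 7 lower, where 36.2% of all genes tested passed, 7.91% higher and 28.3% lower. The share of motor genes that passed (29.8%) was thus not above that of all genes. The median log2 difference was -0.21 over the motor genes against -0.36 over all genes. Falls in this comparison depended on the scaling of the libraries: with median ratio scaling, which moved the median of all genes to -0.03, 14 motor genes were higher and 0 lower, beside 26.4% of all genes that passed. With quantile normalization 9 were higher and 0 lower, beside 25.3%. TPM scaling went the other way, with 5 higher and 8 lower, beside 39.3%. In PTPN21 cells 17 of 47 passed, 14 higher and 3 lower, beside 28.5% of all genes, 9.22% higher and 19.3% lower. The medians there were 0.17 over the motor genes and -0.17 over all genes, and median ratio scaling gave 17 higher and 1 lower, beside 25.8% of all genes. Corrected for GC content and length, an alternative added once the data had been seen, 10 were higher and 6 lower, beside 27% of all genes. The median of the motor genes was then 0.06, against -0.19 over all genes. With only the groups compared 17 were higher and 6 lower, beside 35.9%. TPM scaling gave 11 higher and 4 lower, beside 27%. The count in PTPN21 cells was 10 without PTPN21+DMSO replicate 1, PTPN21+DMSO replicate 3 or PTPN21+VCR replicate 1, and 9 without PTPN21+VCR replicate 2. The shares of all genes were then 20.4%, 20.7%, 21.1% and 20.3%.

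The mitotic kinesins gave no fall and most of the rises that occurred in both kinds of cells. Of 12 tested, 5 rose and 0 fell in NC cells, where 7.91% of all genes were higher and 28.3% lower. Their median log2 difference was 0.21, against -0.36 over all genes. In PTPN21 cells 7 rose and 0 fell, where 9.22% of all genes were higher and 19.3% lower. The medians there were 0.59 and -0.17. Their summed level went from 334 to 387 FPKM in NC+DMSO to 391 to 443 in NC+VCR. It went from 309 to 330 in PTPN21+DMSO to 360 to 396 in PTPN21+VCR. In FPKM as deposited, VCR and DMSO libraries thus did not overlap in either kind of cell, narrowly so in NC cells. Total FPKM of all genes was 520098 in NC+DMSO replicate 3 and 589430 to 595061 in the NC+VCR libraries. The sums were not rescaled, so whether they stay apart with another scaling was not tested. KIF20A, KIFC1, KIF23, KIF4A and KIF18A passed in both.

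KIF20A (ENSG00000112984, GRCh38 chr5:138178719-138187715, plus strand), or MKLP2, brings the chromosomal passenger complex to the spindle midzone and acts in cytokinesis. It stood at 14.8, 16.8 and 16.5 FPKM in NC+DMSO and at 42.1, 31.4 and 37.2 in NC+VCR, a log2 difference of 1.15 (SE 0.142, limma adjusted p = 0.000131). In PTPN21+DMSO it stood at 16.4, 13.6 and 15.5 and in PTPN21+VCR at 32.8, 35.4 and 30.8, a log2 difference of 1.08 (SE 0.142, limma adjusted p = 0.000225). All 6 VCR libraries lay above all 6 DMSO libraries, by 2.30 times in the means of NC and 2.18 times in those of PTPN21 cells.

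KIFC1 (ENSG00000237649, chr6:33391536-33409924, plus strand), or HSET, is a minus-end kinesin that bundles spindle microtubules and clusters extra centrosomes. It stood at 32.6, 32.3 and 40.2 FPKM in NC+DMSO and 62.4, 46.5 and 56.1 in NC+VCR (log2 difference 0.63, SE 0.149, limma adjusted p = 0.00658). In PTPN21+DMSO it stood at 20.3, 24.8 and 22.5 and in PTPN21+VCR at 46.9, 41.6 and 38.8 (log2 difference 0.89, SE 0.149, limma adjusted p = 0.00111). The 3 PTPN21+DMSO libraries were the lowest of the 12, and the VCR libraries of each kind of cell lay above the DMSO libraries of the same kind.

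KIF23 (ENSG00000137807, chr15:69414246-69448427, plus strand) is MKLP1, the motor of the centralspindlin complex that organizes the midzone. It stood at 21.3, 19.0 and 21.0 FPKM in NC+DMSO and 31.9, 32.9 and 28.7 in NC+VCR (log2 difference 0.59, SE 0.139, limma adjusted p = 0.007). In PTPN21+DMSO it stood at 14.8, 16.9 and 14.5 and in PTPN21+VCR at 25.9, 27.7 and 21.2 (log2 difference 0.65, SE 0.139, limma adjusted p = 0.00462). The groups of each comparison did not overlap.

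KIF4A (ENSG00000090889, chrX:70290090-70420832, plus strand) is a chromokinesin that sets the length of midzone microtubules with PRC1. It stood at 27.2, 25.1 and 27.8 FPKM in NC+DMSO and 38.0, 40.7 and 35.4 in NC+VCR (log2 difference 0.49, SE 0.121, limma adjusted p = 0.00809). In PTPN21+DMSO it stood at 22.6, 25.6 and 25.8 and in PTPN21+VCR at 40.0, 35.7 and 34.6 (log2 difference 0.56, SE 0.121, limma adjusted p = 0.00508). All VCR libraries lay above all DMSO libraries. Its near-identical copy KIF4B was at 0.218 FPKM or less, though how reads of the pair were divided is not given in the sources used here.

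KIF18A (ENSG00000121621, chr11:28020620-28108308, minus strand) dampens the movement of chromosomes at the plus ends of kinetochore microtubules. It stood at 12.8, 8.60 and 11.7 FPKM in NC+DMSO and 15.8, 15.7 and 17 in NC+VCR (log2 difference 0.53, SE 0.16, limma adjusted p = 0.0236). It stood in PTPN21+DMSO at 7.31, 8.47 and 8.64 and in PTPN21+VCR at 17.5, 17.4 and 17.9 (log2 difference 1.03, SE 0.16, limma adjusted p = 0.000681). The larger difference in PTPN21 cells did not pass the test of the interaction (0.50, SE 0.227, limma adjusted p = 0.352). The rise in NC cells did not pass without NC+DMSO replicate 2, the lowest of its group (0.37, limma adjusted p = 0.077), or without NC+VCR replicate 3 (0.49, limma adjusted p = 0.0606). Nor did it pass with TPM scaling (0.44, limma adjusted p = 0.0749) or with only the groups compared (0.53, limma adjusted p = 0.0972).

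**Figure D2:**
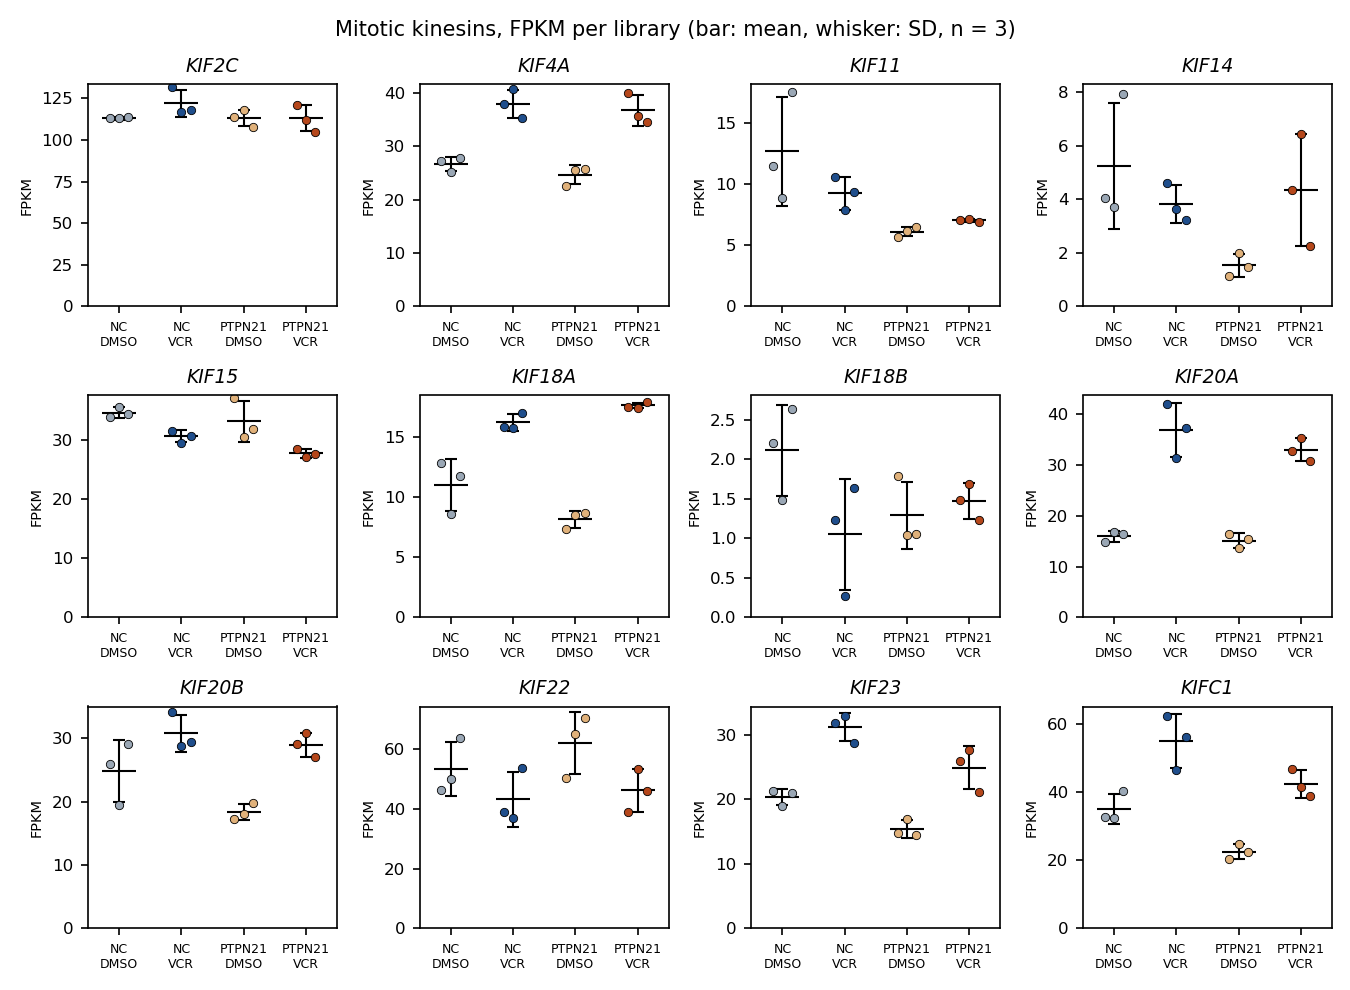
FPKM of the 12 mitotic kinesins in each library (points), with the mean (bar) and SD (whisker) of 3 libraries per group, each panel starting at 0. KIF20A, KIF4A, KIF18A, KIF23 and KIFC1 stand higher with VCR in both kinds of cells, while KIF2C stays between 105 and 132 FPKM in all 12 libraries.

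The other mitotic kinesins did not form 1 pattern. KIF2C stood at 113, 113 and 114 FPKM in NC+DMSO, 132, 117 and 118 in NC+VCR, 114, 118 and 108 in PTPN21+DMSO and 121, 112 and 105 in PTPN21+VCR. Its log2 differences with VCR were 0.11 in NC and -0.01 in PTPN21 cells (SE 0.0974, limma adjusted p = 0.401 and 0.962). KIF14, which acts with citron kinase in cytokinesis, stood at 1.15, 2 and 1.47 FPKM in PTPN21+DMSO and 4.35, 6.42 and 2.24 in PTPN21+VCR (log2 difference 1.00, SE 0.325, limma adjusted p = 0.0369). In NC+DMSO it stood at 4.06, 3.69 and 7.94 and in NC+VCR at 4.6, 3.65 and 3.22, with overlapping groups (-0.32, limma adjusted p = 0.465). The rise of KIF14 was lost when any one PTPN21+DMSO library or PTPN21+VCR replicate 1 or 2 was left out (log2 differences 0.73 to 1.13). KIF20B rose in PTPN21 cells from a mean of 18.4 to 29 FPKM (log2 difference 0.63, limma adjusted p = 0.0098), but with GC content and length correction and a replicate block the difference was 0.37 (limma adjusted p = 0.0586). KIF11, KIF15, KIF18B and KIF22 passed in neither VCR comparison.

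Among the dynein subunits, the Tctex-type light chains DYNLT3 and DYNLT1 had the largest differences. DYNLT3 (ENSG00000165169, chrX:37836757-37847637, minus strand) stood at 4.49, 4.59 and 4.63 FPKM in NC+DMSO and 10.4, 13.0 and 9.54 in NC+VCR (log2 difference 1.09, SE 0.183, limma adjusted p = 0.000915). It stood in PTPN21+DMSO at 3.22, 4.82 and 4.79 and in PTPN21+VCR at 10.3, 10.1 and 9.59 (log2 difference 1.07, SE 0.183, limma adjusted p = 0.00121). Every VCR library stood above every DMSO library, with means 2.40 and 2.34 times as high.

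DYNLT1 (ENSG00000146425, chr6:158636474-158644739, minus strand), its paralog and a cargo-binding light chain, rose in PTPN21 cells. It stood at 14.2, 11.7 and 8.77 FPKM in PTPN21+DMSO and at 37.7, 35.0 and 30.3 in PTPN21+VCR, a log2 difference of 1.51 (SE 0.19, limma adjusted p = 0.000167) and the largest of the motor genes in that comparison. In NC+DMSO it stood at 17, 19.1 and 16.9 and in NC+VCR at 16, 23.9 and 18.3, with overlapping groups and a log2 difference of 0.11 (SE 0.19, limma adjusted p = 0.67). The interaction, which tests whether these responses differ, was 1.40 (SE 0.269, limma adjusted p = 0.0671) and passed in none of 22 settings (adjusted p 0.0516 to 0.184). The 3 PTPN21+VCR libraries lay above the 3 NC+VCR libraries (log2 difference 0.81, SE 0.19, limma adjusted p = 0.0542). Without NC+VCR replicate 2, the highest of its group, that difference was 0.96 (limma adjusted p = 0.0406).

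The remaining subunits changed less. The intermediate chain DYNC1I2 rose in PTPN21 cells from 112, 121 and 118 FPKM to 184, 213 and 146 (log2 difference 0.61, SE 0.169, limma adjusted p = 0.0193). It stood at 125, 177 and 129 in NC+DMSO and 186, 186 and 144 in NC+VCR, which overlapped, and its copy DYNC1I2P1 was at 4.88 to 12 FPKM, so shared reads are possible. The rise of DYNC1I2 did not pass without PTPN21+DMSO replicate 1 or 3 or PTPN21+VCR replicate 1 or 2 (0.48 to 0.61). The heavy chain DYNC1H1 fell in NC cells, from 8.43, 9.96 and 15.7 FPKM to 7.37, 4.89 and 6.40 (log2 difference -0.75, SE 0.239, limma adjusted p = 0.0289). It stood in PTPN21+DMSO at 9.25, 9.40 and 9.83 and in PTPN21+VCR at 8.81, 8.08 and 12.7. The fall in NC cells was -0.51 without NC+DMSO replicate 3 (limma adjusted p = 0.114), -0.61 without NC+VCR replicate 2 (0.0927), -0.77 without NC+VCR replicate 3 (0.0511) and -0.39 with median ratio scaling (limma adjusted p = 0.22). DYNLL2 also fell in NC cells, from a mean of 4.40 to 2.54 FPKM (limma adjusted p = 0.045), a call that was lost when any one library except NC+DMSO replicate 1 was left out (log2 differences -0.63 to -0.42). DYNC1LI1, DYNC1LI2, DYNLL1 and DYNLRB1 passed in neither VCR comparison.

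Dynactin, which links dynein to its cargo and makes it processive, moved in both directions. DCTN1, the p150 subunit that touches microtubules, stood at 41.9, 51.8 and 63.2 FPKM in NC+DMSO and 35.2, 26.4 and 33.8 in NC+VCR (log2 difference -0.69, SE 0.173, limma adjusted p = 0.00921). It stood in PTPN21+DMSO at 32.9, 40.0 and 36.9 and in PTPN21+VCR at 28.6, 22.6 and 23.1 (log2 difference -0.55, SE 0.173, limma adjusted p = 0.0329). The groups did not overlap within either kind of cell, but with median ratio scaling the differences were -0.30 and -0.37 and neither passed (limma adjusted p = 0.166 and 0.0905). The fall in PTPN21 cells also failed without PTPN21+DMSO replicate 2 or 3 or PTPN21+VCR replicate 2 or 3 (-0.54 to -0.49). DCTN2, the dynamitin subunit, rose in NC cells from a mean of 29.6 to 41.8 FPKM (limma adjusted p = 0.0321), and DCTN6 in PTPN21 cells from 44.0, 48.6 and 48.1 to 63.0, 62.9 and 55.8 (limma adjusted p = 0.0372). In NC+DMSO DCTN6 stood at 57.2, 55.0 and 58.1 and in NC+VCR at 63.8, 51.1 and 62.3. The rise of DCTN2 was lost when any one NC+DMSO library or NC+VCR replicate 1 or 2 was left out (0.33 to 0.47), and that of DCTN6 when any one PTPN21+DMSO library or PTPN21+VCR replicate 1 or 2 was (0.32 to 0.39). With GC content and length correction the difference of DCTN6 was 0.13 (limma adjusted p = 0.575). With TPM scaling those of DCTN2 and DCTN6 were 0.37 and 0.34, and neither passed (limma adjusted p = 0.0819 and 0.0703). DCTN3, DCTN4 and DCTN5 did not pass.

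**Figure D3:**
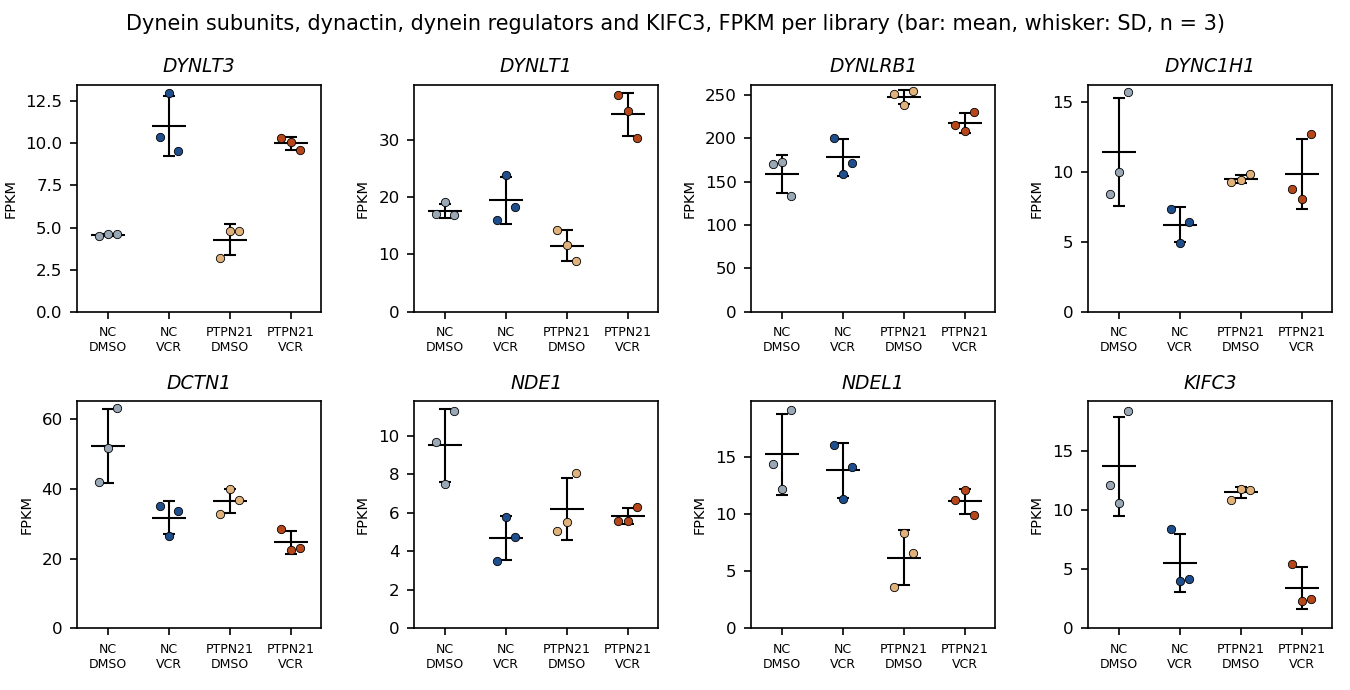
FPKM of dynein, dynactin and regulator genes in each library (points), with mean (bar) and SD (whisker) of 3 libraries per group. DYNLT3 stands higher with VCR in both kinds of cells, DYNLT1 stands at 30.3 to 37.7 FPKM in PTPN21+VCR and at 8.77 to 23.9 elsewhere, and DCTN1 stands lower with VCR in both.

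The dynein regulators NDE1 and NDEL1, paralogs that recruit the LIS1 protein PAFAH1B1 to dynein, each passed in 1 kind of cell. NDE1 stood at 9.69, 7.51 and 11.3 FPKM in NC+DMSO and 3.5, 5.80 and 4.76 in NC+VCR (log2 difference -0.89, SE 0.225, limma adjusted p = 0.00947). It stood at 5.05, 5.55 and 8.05 in PTPN21+DMSO and 5.59, 5.56 and 6.30 in PTPN21+VCR, which overlapped. NDEL1 stood at 3.63, 8.35 and 6.58 in PTPN21+DMSO and 11.2, 12.1 and 9.94 in PTPN21+VCR (log2 difference 0.80, SE 0.254, limma adjusted p = 0.0333). In NC+DMSO it stood at 14.4, 12.2 and 19.1 and in NC+VCR at 16, 11.3 and 14.1. The rise of NDEL1 was lost when PTPN21+DMSO replicate 1 or 3 or any one PTPN21+VCR library was left out (0.52 to 0.87). With median ratio scaling the fall of NDE1 was -0.54 (limma adjusted p = 0.0913). The interactions of NDE1 and NDEL1 were 0.83 and 0.93 and did not pass (limma adjusted p = 0.283 and 0.284). PAFAH1B1 averaged 9.54 to 11.8 FPKM and passed in no comparison.

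Of the transport kinesins few passed, and most of those fell. KIFC3 (ENSG00000140859, chr16:57758217-57863053, minus strand), a minus-end kinesin known from epithelial junctions and membrane transport, had the largest fall. It stood at 12.1, 10.6 and 18.4 FPKM in NC+DMSO and 8.41, 4.04 and 4.15 in NC+VCR (log2 difference -1.20, SE 0.311, limma adjusted p = 0.0109). It stood in PTPN21+DMSO at 10.9, 11.8 and 11.7 and in PTPN21+VCR at 5.42, 2.34 and 2.46 (log2 difference -1.57, SE 0.311, limma adjusted p = 0.00304). The groups did not overlap, and the fall in PTPN21 cells passed in all 23 settings, that in NC cells in 21 of 23, not with median ratio scaling (-0.84, limma adjusted p = 0.0507) or quantile normalization (-0.82, limma adjusted p = 0.0547).

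KIF1C, a kinesin-3 that carries vesicles and messenger RNA, stood at 5.59, 8.21 and 9.25 FPKM in NC+DMSO and 4.22, 4.18 and 5.11 in NC+VCR (log2 difference -0.64, SE 0.201, limma adjusted p = 0.0277). It stood in PTPN21+DMSO at 5.20, 5.37 and 5.02 and in PTPN21+VCR at 3.05, 2.44 and 3.14 (log2 difference -0.68, SE 0.201, limma adjusted p = 0.0252). Groups did not overlap, but with median ratio scaling neither difference passed (-0.29, limma adjusted p = 0.283, and -0.54, limma adjusted p = 0.0583). The fall in NC cells was also lost without NC+DMSO replicate 2 or 3 or NC+VCR replicate 1 or 2 (-0.60 to -0.51), and that in PTPN21 cells when any one PTPN21+DMSO library or PTPN21+VCR replicate 1 or 2 was left out (-0.71 to -0.60). KIFAP3, the adaptor of the kinesin-2 motors, fell in NC cells from 6.98, 7.69 and 6.94 to 3.14, 5.11 and 4.31 (log2 difference -0.68, SE 0.195, limma adjusted p = 0.0181), and stood at 4.76, 6.72 and 6.01 in PTPN21+DMSO and 4.31, 4.25 and 4.62 in PTPN21+VCR. That fall did not pass without NC+VCR replicate 1 (-0.52, limma adjusted p = 0.0599) or with median ratio scaling (-0.34, limma adjusted p = 0.236). KIF21B, a kinesin-4 known mainly from neurons, rose in PTPN21 cells from 0.907, 1.58 and 1.76 to 4.07, 3.80 and 2.73 (log2 difference 0.91, SE 0.284, limma adjusted p = 0.0312). It stood at 1.94, 1.65 and 4.17 in NC+DMSO and 5.22, 3.28 and 4.65 in NC+VCR, which overlapped. The rise of KIF21B was lost without PTPN21+DMSO replicate 1 or 2 or PTPN21+VCR replicate 1 or 2 (0.75 to 0.97).

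Among the kinesin-1, kinesin-2, kinesin-3 and kinesin-4 genes, the best expressed of each, KIF5B, KIF3A, KIF16B and KIF21A, did not pass in a VCR comparison. KIF5B stood at 57.8, 45.7 and 72.5 FPKM in NC+DMSO and 52.5, 47 and 47 in NC+VCR, and at 40.6, 41.2 and 43.3 in PTPN21+DMSO and 41.6, 38.4 and 38.7 in PTPN21+VCR. KIF3A, a motor subunit of kinesin-2, stood at 18.5, 9.10 and 23.7 in NC+DMSO and 7.79, 9.84 and 7 in NC+VCR, and at 14.1, 6.63 and 8.41 in PTPN21+DMSO and 5.73, 13.2 and 5.34 in PTPN21+VCR. Libraries of 1 group differed for KIF3A by more than the groups did. KIF21A stood at 11.7, 11.6 and 17.2 in NC+DMSO and 10.1, 10.7 and 16.8 in NC+VCR, and at 8.19, 8.48 and 8.65 in PTPN21+DMSO and 13.4, 13.1 and 10.1 in PTPN21+VCR. KIF16B, an endosomal kinesin-3, stood at 6.01, 6.04 and 9.80 in NC+DMSO and 6.61, 5.36 and 6.40 in NC+VCR, and at 2.52, 4.52 and 4.29 in PTPN21+DMSO and 4.86, 6.13 and 5.19 in PTPN21+VCR.

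**Figure D4:**
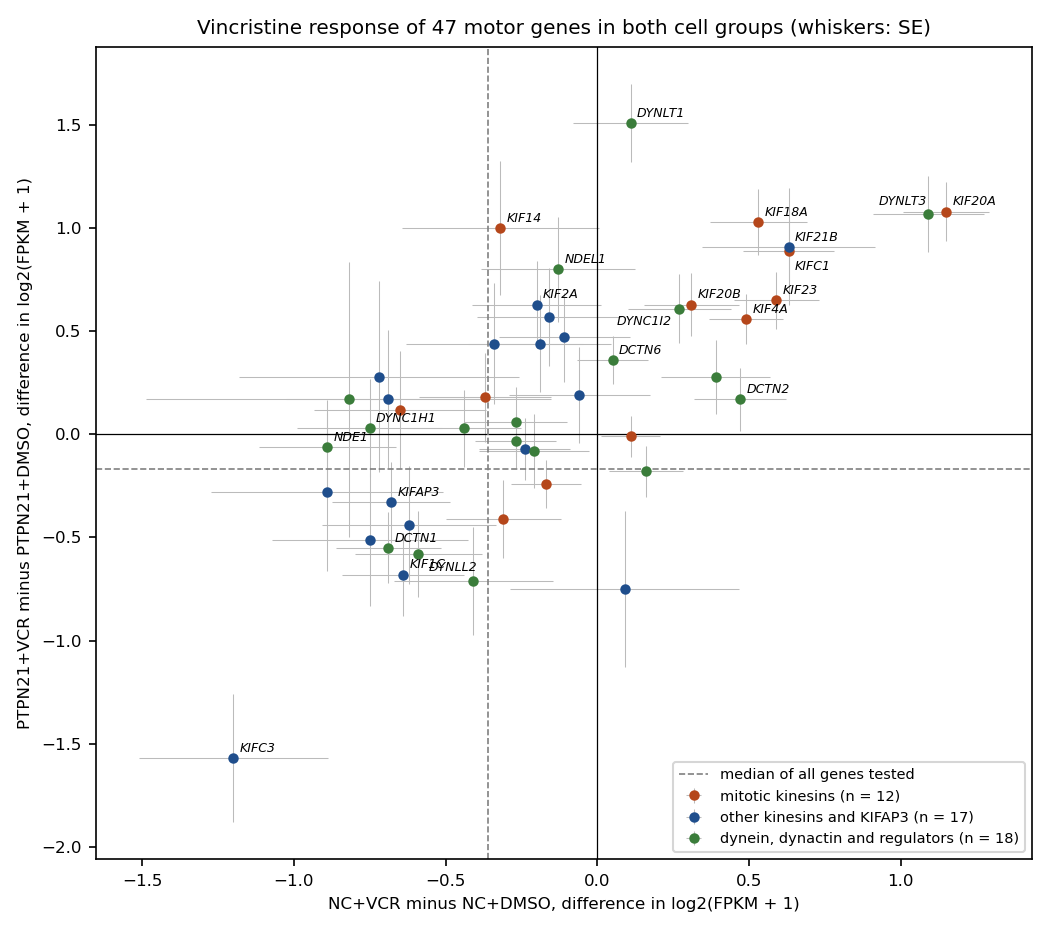
Log2 difference with VCR in NC cells (x axis) against that in PTPN21 cells (y axis) for the 47 motor genes tested, with standard errors as whiskers and the medians of all genes tested as dashed lines. KIF20A and DYNLT3 lie above 1 on both axes, KIFC3 lies below -1 on both, and DYNLT1 lies at 0.11 and 1.51; genes that passed are named.

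The overlaps given next were not counted over all genes, so whether the motor genes differ in them was not tested. Of all genes 36.2% passed with VCR in NC cells and 28.5% in PTPN21 cells. Over both VCR comparisons 22 motor genes passed at least once. Of these 6 rose in both (KIF20A, KIFC1, KIF23, KIF4A, KIF18A and DYNLT3), 3 fell in both (KIFC3, KIF1C and DCTN1) and 0 went in opposite directions. A further 5 passed in NC cells alone and 8 in PTPN21 cells alone, but the interaction passed for 0 of 47, so a difference between NC and PTPN21 cells was not shown. That test passed for 0.129% of all genes, 0.0259% higher and 0.104% lower, and 8 motor genes had an unadjusted p under 0.05 in it. The share of all genes with an unadjusted p under 0.05 was not counted, so these 8 cannot be set beside the 0.129%. KIF20A, KIFC1, KIF23, KIF4A and DYNLT3 passed in both VCR comparisons in all 23 settings, as did KIF18A and DYNLT1 in PTPN21 cells.

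PTPN21+DMSO was compared with NC+DMSO to ask what the construct changed without drug. Of 47 motor genes 6 passed (12.8%), 1 higher and 5 lower, beside 6.34% of all genes, 2.65% higher and 3.69% lower. The median log2 difference was -0.39 over the motor genes and -0.14 over all genes, and 39 of 47 lay below 0. The median of the motor genes was -0.20 with median ratio scaling (all genes 0.03) and -0.22 with GC content and length correction (all genes -0.13). DYNLRB1 (ENSG00000125971, chr20:34516409-34540958, plus strand) was the higher gene, at 170, 173 and 133 FPKM in NC+DMSO and 251, 239 and 255 in PTPN21+DMSO (log2 difference 0.65, SE 0.123, limma adjusted p = 0.0167). With VCR it stood at 201, 159 and 172 in NC and 216, 209 and 231 in PTPN21 cells. The PTPN21 libraries were above the NC libraries under either treatment, and the difference under VCR was 0.30 (limma adjusted p = 0.232).

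The genes that were lower in PTPN21+DMSO were KIF14, NDEL1, KIF11, KIF2A and KIFC1. Of these KIF14, KIF11 and KIFC1 are mitotic kinesins, 3 of the 12 tested, where 3.69% of all genes were lower. KIF11 (Eg5), the plus-end motor that pushes spindle poles apart, stood at 11.5, 8.89 and 17.6 FPKM in NC+DMSO and 5.71, 6.21 and 6.48 in PTPN21+DMSO (log2 difference -0.89, SE 0.217, limma adjusted p = 0.037). With VCR it stood at 10.6, 7.86 and 9.36 in NC and 7.08, 7.18 and 6.94 in PTPN21 cells. KIF2A, a microtubule depolymerase of spindle poles, stood at 12.4, 9.70 and 13.2 in NC+DMSO and 5.45, 7.05 and 6.36 in PTPN21+DMSO (log2 difference -0.80, SE 0.213, limma adjusted p = 0.0455). Under VCR it stood at 8.10, 12.1 and 10.2 in NC and 10.7, 12.9 and 7.80 in PTPN21 cells, which overlapped. The differences of KIF14, NDEL1 and KIFC1, whose values are given above, were -1.24, -1.21 and -0.61 (limma adjusted p = 0.0435, 0.0236 and 0.0366). KIF14, KIF2A, KIFC1 and NDEL1 were also among the genes that rose with VCR in PTPN21 cells. For KIF2A that rise (log2 difference 0.63, limma adjusted p = 0.0433) was lost when any one PTPN21+DMSO library, PTPN21+VCR replicate 1 or 2, NC+DMSO replicate 1 or NC+VCR replicate 3 was left out (0.48 to 0.71). Both of those comparisons use the same PTPN21+DMSO libraries, so a low value in these libraries enters both.

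These differences rest on few libraries. NC+DMSO replicate 3 was the highest of its group for 32 of the 47 motor genes, and PTPN21+DMSO replicate 1 the lowest of its group for 30. The same was not counted over all genes. The scale factor of median ratio scaling, taken over all genes, was 1.294 in NC+DMSO replicate 3, against 1.162 and 1.113 in its group. In PTPN21+DMSO replicate 1 it was 0.982, against 1.081 and 1.036. Whether the motor genes differ from all genes in this was not tested. Without NC+DMSO replicate 3 the count of motor genes that passed was 1 (1.17% of all genes). It was also 1 without NC+DMSO replicate 1 (1.46%), and 12 without NC+DMSO replicate 2 (11.6%). Without PTPN21+DMSO replicate 1 or replicate 3 it was 0 (0.578% and 1.6%). It was 2 without PTPN21+DMSO replicate 2 (3.61%) or PTPN21+VCR replicate 1 (3.54%). It was 3 without PTPN21+VCR replicate 2 (4.12%), whose group enters only through the shared estimate of spread. The share of all genes thus moved with these libraries too, from 6.34% with all of them. DYNLRB1 is the gene that passed without NC+DMSO replicate 3. The difference between the groups also varied with transcript length: over the 47 genes Spearman's rho with the length of the longest annotated transcript was -0.51, and over 11507 genes -0.42. This is across genes, which share libraries and are not replicates. With values corrected for GC content and length, chosen after seeing the data, 3 motor genes passed, beside 4.06% of all genes. The part of length or depth in these differences was not tested.

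**Figure D5:**
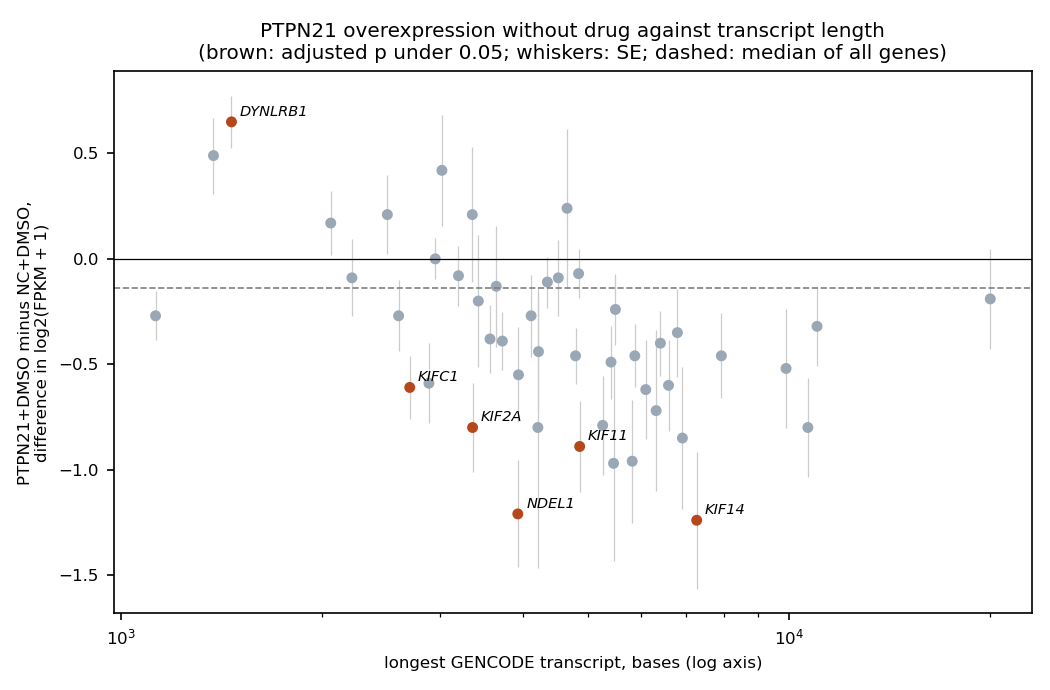
Log2 difference of PTPN21+DMSO minus NC+DMSO (y axis) against the length of the longest annotated transcript in bases (log axis) for the 47 motor genes, each 1 point. Longer genes stood lower, with a Spearman's rho of -0.51.

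Under VCR, the comparison of PTPN21+VCR with NC+VCR passed for 0 of 47 motor genes by limma, where 1.82% of all genes passed, 1.00% higher and 0.820% lower. An unadjusted p under 0.05 was found for 6, namely DYNLT1, DYNC1H1 and DYNLRB1 (log2 differences 0.81, 0.58 and 0.30) and KIF1C, KIFC1 and KIF23 (-0.50, -0.36 and -0.32). The share of all genes at that unadjusted threshold was not counted, so these 6 cannot be set beside the 1.82%. The median was -0.05 over the motor genes and 0.03 over all genes, and the differences ranged from -0.61 to 0.81. KIF20A averaged 36.9 ± 5.36 FPKM in NC+VCR and 33.0 ± 2.29 in PTPN21+VCR (SD, n = 3), and KIF4A 38.0 ± 2.66 and 36.8 ± 2.89.

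Genes whose products work with the motors were counted for comparison, and those named were picked after their values were seen. Of 20 spindle proteins, all tested, 4 rose and 5 fell with VCR in NC cells and 5 rose and 1 fell in PTPN21 cells, shares of 45% and 30% beside 36.2% and 28.5% of all genes. HMMR, a spindle pole protein, went from a mean of 106 to 216 FPKM in NC (log2 difference 1.02, limma adjusted p = 0.000927) and from 69.1 to 199.8 in PTPN21 cells (1.52, limma adjusted p = 7.4e-05). Of 27 adaptors and partners 26 were tested, and 3 rose and 8 fell in NC cells, 3 rose and 3 fell in PTPN21 cells, shares of 42.3% and 23.1%. MAPRE1 (EB1), which tracks growing plus ends, rose in both, by 0.78 and 1.09 (limma adjusted p = 0.00157 and 0.000212). Of 13 further motor genes 5 were tested, and 1 rose and 2 fell in NC cells and 2 rose and 2 fell in PTPN21 cells. CENPE, the kinetochore kinesin, rose from 11.6 to 23.7 FPKM in NC and from 8.48 to 20.7 in PTPN21 cells (log2 differences 1.00 and 1.18, limma adjusted p = 0.00346 and 0.00162). DYNC2I2 and DYNC2I1, intermediate chains of the dynein that works in cilia, fell in both. DYNC2I2 went from 19.3 to 4.86 FPKM in NC and from 20.6 to 5.83 in PTPN21 cells (log2 differences -2.17 and -1.66, limma adjusted p = 0.0107 and 0.0435). DYNC2I1 went from 64.1 to 39.4 and from 62.5 to 27.3 (-0.69 and -1.17, limma adjusted p = 0.000886 and 2.54e-05), and was also lower in PTPN21+VCR than in NC+VCR (-0.52, limma adjusted p = 0.0451).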

How the data were processed

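RNA was sequenced from 12 libraries, 3 in each of 4 groups taken from the labels. The authors deposited 1 table of FPKM values for all libraries and genes; the submitters' processing notes name fastp, Bowtie2 and the mouse build mm10 with no role given, while the gene identifiers are human Ensembl ones, and the study's methods describe digital gene expression tag profiling by a company. The aligner's role, counting rule and strand setting are not given in the sources used here. All 12 value columns matched a sample's title.

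The 54 genes and the gene lists set beside them were chosen with earlier results of these data known. Genes averaging 1 FPKM or more were kept (11591 of 60671) and log2(FPKM + 1) was fitted with limma 3.58.1 in R 4.3.3, as 1 model of 4 group means with an intensity trend and 8 residual degrees of freedom; this log2 scale understates changes of low genes. The threshold was a Benjamini-Hochberg adjusted p of 0.05. FPKM values are not counts, so no count model was used. The procedure was tested on simulated data. Values in every library are given for the 6 largest rises and falls among genes that passed in each comparison, the best expressed gene of each role, the 3 lowest interaction p-values and genes that turned direction; the rest are given by range and count.

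The alternatives tried were quantile normalization, median ratio scaling, TPM scaling, a pseudocount of 0.1, a minimum mean of 5 FPKM or none, no trend, only the groups compared, a replicate block and each library left out. A correction for GC content and length by splines with 5 degrees of freedom, alone and with the block, was added after seeing the data. These make 23 settings beside the values as reported. Depth was estimated from FPKM steps among 8702 single-exon genes of at least 500 bases. Only implied depths inside a fixed window were used, which held 168 to 293 genes per library, so no estimate could fall outside it. A step of 1 fragment and one of 2 cannot be told apart, so the estimate holds up to such a factor. Gene positions come from the GENCODE annotation of GRCh38, matched by identifier, and promoters from RefSeq (GRCh38.p14). Figures were drawn with Python 3.11.15 and matplotlib 3.10.9.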

Additional observations from a re-analysis of the deposited data

How the results depend on the processing

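Counts of motor genes that passed are given with the share of all genes tested in that setting that passed in brackets. For VCR in NC cells the count was 14 (36.2%), 9 with quantile normalization (25.3%) and 8 with only the groups compared (23.1%). With a library left out it was 10 to 13 (27.8% to 34.7%). It was 17 for VCR in PTPN21 cells (28.5%), 11 with no filter (9.89%) and 23 with only the groups compared (35.9%). With a library left out it was 9 to 19 (20.3% to 31.2%). Between PTPN21+DMSO and NC+DMSO 6 passed (6.34%), against 1 with no filter (0.628%), 12 with TPM scaling (9.16%) and 2 with median ratio scaling (4.71%). There were 2 without the trend (2.77%), 0 with only the groups compared (0.345%) and 3 with GC content and length correction (4.06%). With a library left out 0 to 12 passed (0.578% to 11.6%). For PTPN21+VCR against NC+VCR the count was 0 (1.82%), and 1, DYNLT1, with a minimum mean of 5 FPKM (5.15%). With a library left out it was 0 to 1 (0.371% to 3.05%). The interaction gave 0 in every setting, with 8 genes at an unadjusted p under 0.05, 4 with quantile normalization, 3 without NC+DMSO replicate 3 or PTPN21+DMSO replicate 1, 5 without PTPN21+DMSO replicate 2, NC+VCR replicate 2 or PTPN21+VCR replicate 2, and 13 without NC+DMSO replicate 2. Shares of all genes at an unadjusted p under 0.05 were not counted. Same-numbered libraries did not deviate together (18 correlations of -0.145 to 0.0583, 2 of 12 libraries closest to their own number). No shared replicate effect was thus found, which does not show how the libraries were made or handled. With a replicate block the counts were 13, 12, 1, 0 and 0, beside 32.7%, 25.5%, 2.09%, 0.638% and 0.069% of all genes. With the block on values corrected for GC content and length the count for PTPN21+DMSO against NC+DMSO was 0, beside 1.41%. The settings were run on the differences that passed, on DYNLT1 in PTPN21+VCR against NC+VCR and on the 3 interactions with the lowest p, and no direction of these turned. Among planned settings 287 kept their side of the threshold, 73 lost it and 1 gained it; with a library left out these were 389, 102 and 1; in the added settings 57, 25 and 0. With 3 libraries a group and unknown read counts per gene, small differences could not be detected, and a difference that missed the threshold is not shown to be absent. Leaving out a library leaves 2 in its group and 7 residual degrees of freedom.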
